A study of Mus musculus with 106 samples.

Results

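In livers of wild-type (WT) mice, 2374 regions of chromatin gained accessibility with GW3965 and overlapped, by at least 1 base, a region gained with T09 (T0901317), while touching no region gained with GW4064. They were selected on their entries in those 3 lists, from the 62838 regions listed for GW3965 over vehicle, of which they made up 3.78%. GW3965 and T09 are agonists of the liver X receptors (LXR), and GW4064 is an agonist of the farnesoid X receptor (FXR). The remaining GW3965 regions comprised 395 gained with all 3 ligands, 2983 gained with GW3965 and GW4064 without T09, and 57086 gained with GW3965 alone. The regions shared by the LXR agonists and absent from the GW4064 list are called shared LXR-agonist regions here.

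The ATAC-seq groups were WT livers 4 h after GW3965, T09 or GW4064 by oral gavage (the series text speaks of injection), each with its own vehicle group, and Foxa2-KO livers after GW4064 or vehicle. Each arm held 2 samples for GW3965 and T09 and 3 for GW4064, from mice of 8 to 12 weeks. The mutant carried Foxa2loxP/loxP with Alfp.Cre, a Cre active in liver epithelial cells, so that other liver cells kept the gene. Whole liver was used, and doses are not given in the sources used here. ChIP-seq lists were available for Foxa2 in WT liver (ligand and vehicle, 1 sample a group, which in the LXR-agonist experiment is labelled as 3 replicates joined) and, in WT and Foxa2-KO liver, for LXR (1 sample a WT group and 3 a mutant group), FXR and PPAR (2 samples a group). The mice of the LXR and PPAR ChIP were 3 months old. The LXR labels name their agonist GW without a number. Each list pools its samples, so no value per animal exists, no test over animals could be made, and every value given is a description of 1 list per comparison. Fold and q are the authors' deposited values, and read depth is unknown.

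LXR is a nuclear receptor that senses oxysterols, pairs with RXR and drives genes of cholesterol export, bile acid formation and fatty acid synthesis in hepatocytes. It binds direct repeats of the half-site AGGTCA with a spacer of 4 bases, known as DR4. Foxa2 is a forkhead pioneer factor that binds nucleosomal DNA in liver enhancers, at motifs such as TGTTTAC and its close variant TGTTTGC. The assay of accessibility, ATAC-seq, reads out DNA open to the Tn5 transposase, at enhancers and promoters and along active gene bodies.

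Shared LXR-agonist regions seldom lay on promoters. Promoter sequence, 250 bases before to 50 after a start, was at hand for 17492 protein-coding genes in 21263 windows, and 92 windows of 75 genes overlapped a shared LXR-agonist region, 74 of them wholly. A Foxa2 peak with GW3965 also lay on 15 of these windows (12 genes), and Foxa2 peaks with both LXR agonists on 8 windows of 5 genes: Mtarc1, Urah, Igfals, Macrod1 and Cyp2c70. Each of these 8 windows also had a Foxa2 peak with GW4064. Those of Mtarc1, Macrod1 and Cyp2c70 had one in every Foxa2 list, both vehicles included. So did the Igfals window that is not printed, chr17:24877594-24877893. The same shares over all windows were not computed. The sequences shown are the windows of Igfals (the acid-labile subunit that holds IGF in plasma), Cyp2c70 (the P450 that forms muricholic acids in mice) and Mtarc1 (a mitochondrial reductase), as examples with Foxa2 peaks with both agonists, and of Apoa1 (the main protein of HDL), whose whole gene lay in such a region. Capitals mark those forkhead motifs and the AGGTCA half-site, searched on both strands, so that a motif on the reverse strand appears as its reverse complement. The sequences are RefSeq's, build mm10, 5′ to 3′ along the gene: Igfals chr17:24877981-24878280 (plus strand), Cyp2c70 chr19:40187237-40187536 (minus strand), Mtarc1 chr1:184811251-184811550 (minus strand) and Apoa1 chr9:46228380-46228679 (plus strand).
Igfals: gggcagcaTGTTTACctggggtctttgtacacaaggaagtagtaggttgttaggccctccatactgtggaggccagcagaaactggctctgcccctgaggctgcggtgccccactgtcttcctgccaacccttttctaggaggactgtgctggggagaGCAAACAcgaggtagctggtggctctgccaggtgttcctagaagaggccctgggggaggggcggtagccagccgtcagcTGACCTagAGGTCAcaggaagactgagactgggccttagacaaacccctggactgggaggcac
Cyp2c70: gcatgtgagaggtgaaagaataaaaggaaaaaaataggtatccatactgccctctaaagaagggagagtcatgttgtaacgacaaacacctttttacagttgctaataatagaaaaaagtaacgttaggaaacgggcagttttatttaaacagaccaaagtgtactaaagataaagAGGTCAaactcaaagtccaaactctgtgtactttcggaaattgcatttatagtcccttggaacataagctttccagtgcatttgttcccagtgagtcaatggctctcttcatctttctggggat
Mtarc1: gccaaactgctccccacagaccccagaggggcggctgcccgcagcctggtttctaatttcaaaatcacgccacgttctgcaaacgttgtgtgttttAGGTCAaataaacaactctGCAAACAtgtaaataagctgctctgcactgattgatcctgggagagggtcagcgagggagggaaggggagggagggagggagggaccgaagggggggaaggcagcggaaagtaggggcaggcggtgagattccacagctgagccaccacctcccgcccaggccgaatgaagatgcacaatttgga
Apoa1: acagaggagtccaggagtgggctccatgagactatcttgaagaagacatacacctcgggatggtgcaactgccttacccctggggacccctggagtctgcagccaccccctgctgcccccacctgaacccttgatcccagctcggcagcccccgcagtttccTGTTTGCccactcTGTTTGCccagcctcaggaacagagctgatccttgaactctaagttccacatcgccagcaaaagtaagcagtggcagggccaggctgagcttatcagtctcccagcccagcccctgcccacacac

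The Igfals window held both forkhead motifs, the second of them on the reverse strand, and a pair of half-sites facing opposite ways. It lay inside a region of 3723 bp with a fold of 1.12 with GW3965 and 1.16 with T09. The Cyp2c70 window held a half-site alone, and the Mtarc1 window held a half-site and, on the reverse strand, TGTTTGC. The Apoa1 window held that forkhead motif at 2 places. Windows were set against whole GW3965 regions, parts of which can lie outside T09 regions. The Mtarc1 region, of 6184 bp, met T09 only at chr1:184806110-184807487, so the Mtarc1 window lay outside the T09 region. Over the windows inside or touching shared LXR-agonist regions, the motif TGTTTGC occurred in 6.52% (6 of 92), against 4.58% of all windows, and the motif TGTTTAC occurred in 1.09% (1 of 92), against 3.01%. The half-site AGGTCA occurred in 17.4% (16 of 92), against 14.7% of all windows. The exact DR4 repeat, a half-site pair with any 4 bases between them, was in 0 of 92 and in 0 of 21263 windows. Each share of the 92 rests on 1 to 16 windows, and most shared LXR-agonist regions lie outside promoters, where no sequence was read.

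The gain at these regions had a similar median with both agonists. The authors' fold over vehicle had a median of 1.96 with GW3965 (quartiles 1.54 and 2.72) and 2.05 with T09 (quartiles 1.54 and 3.06), and the fold with T09 was the higher at 1246 of the 2374 regions (52.5%). A fold of at least 2 with both agonists was listed for 869. Across the 2374 regions, fold with GW3965 and fold with T09 had a Spearman correlation of 0.63, and the widths had one of 0.59. Fold fell as width grew (Spearman -0.84 with GW3965 and -0.82 with T09), so the points share this relation to width as well as their libraries. The 505 regions of 1 kb or wider had median folds of 1.37 with GW3965 and 1.43 with T09, while the 762 under 250 bp had 3.18 and 2.98. The T09 fold and width of a region are those of the T09 region it overlaps that is best placed in its list. Neighbouring regions can share it. These folds and widths come from the lists that chose the regions and describe them only.

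**Figure D1:**
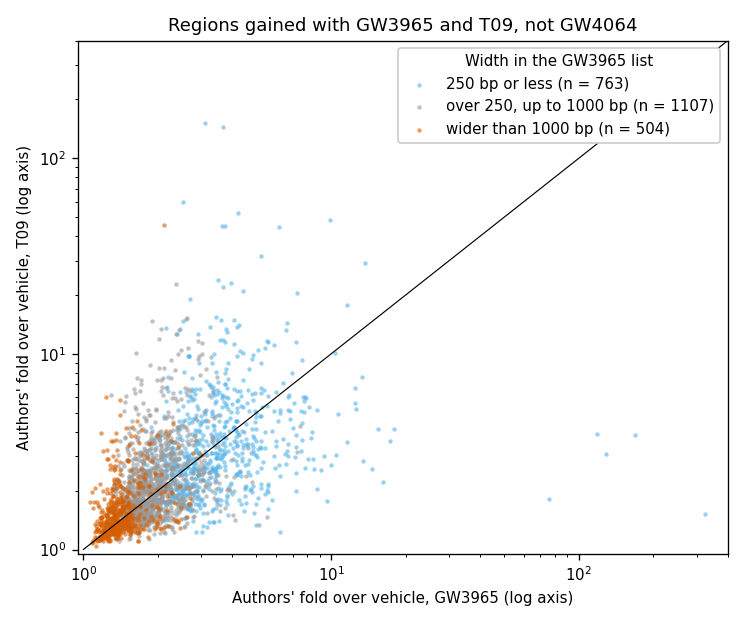
Authors' fold over vehicle with GW3965 (x axis) against fold with T09 (y axis), both on log axes, 1 point for each of the 2374 regions, coloured by width in the GW3965 list, with the line of equal folds. Regions of 1 kb or wider had median folds of 1.37 with GW3965 and 1.43 with T09, and sit at the lower left, and folds above 100 belong to regions of 250 bp or less.

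Shared LXR-agonist regions were wider than regions gained with GW3965 alone, at a median of 430 bp (quartiles 190 and 856, range 1 to 19132) against 114 bp. The other overlapping classes were wider still, with medians of 756 bp for the regions gained with all 3 ligands and 478 bp for those gained with GW3965 and GW4064. A wider region has more bases in which to meet another list: 1.72% of GW3965 regions of 250 bp or less met the rule, 6.94% of those above 250 and up to 500 bp, 9.84% of those up to 1000 bp and 10.3% of wider ones. In all they covered 1.85 Mb, of which 1.31 Mb (70.7%) also lay in a T09 region. The common stretch had a median of 240 bases, and it reached 100 bases at 1694 regions (71.4%) and stayed under 10 bases at 141. Just inside the rule were a 1-bp region in Elovl6 with a fold of 325, a region in Bbs9 and one in Pak1ip1, each with 1 base in common with T09. Just outside were regions in Slc13a2, near Hsd3b3 and in Setdb1, which shared 1, 6 and 6 bases with a GW4064 region.

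Most shared LXR-agonist regions were in genes. A protein-coding gene held 1535 of them (64.7%), against 49.3% of regions gained with GW3965 alone. The share in genes was similar in the regions gained with all 3 ligands (70.1%) and with GW3965 and GW4064 (66.3%). A start site was covered by 65 (2.74%), against 2.53% of regions gained with GW3965 alone. A start site was covered more often by the regions gained with all 3 ligands (6.58%) and with GW3965 and GW4064 (7.34%). Of the 1142 that had their centre in a single gene of known strand, 24.1% were in the first 25% of the gene's length and 29.9% in the last 25%. Of 23353 other GW3965 regions, 27.9% were in the first 25% and 24.8% in the last. In total 1091 genes (4.98% of 21887) held a shared LXR-agonist region in the body, 852 of them just 1 and 29 of them 5 or more. At least 25% of the body lay inside such regions in 49 genes (0.224%). This coverage counts whole GW3965 regions, parts of which can lie outside T09 regions. Rnpepl1, for example, had 32.1% of its body inside shared LXR-agonist regions and 7.85% inside T09 regions.

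Densely covered runs of these regions lay over Acsl1, Slc27a2, Cyp2c70 and Ttc39c. Acsl1 carried the best placed of them in the GW3965 list, taken alone. Acsl1 encodes the long-chain acyl-CoA synthetase that activates fatty acids. In Acsl1 (chr8:46471037-46536051, mm10), 15 regions of 257 to 11793 bp covered 61.1% of the body, with folds of 1.9 to 5.52 (median 2.36) for GW3965 and 1.28 to 3.06 (median 1.59) for T09. One of these, at chr8:46535906-46547698 over the 3′ end of the gene, was entry 4 of the GW3965 list, with a fold of 2.2 for GW3965 and 1.32 for T09. All GW3965 regions together covered 85.5% of the Acsl1 body, T09 regions 51.6%, GW4064 regions 1.33%, and Foxa2-KO GW4064 regions 0%. The 61.1% counts whole GW3965 regions, so part of it lay outside T09 regions. A Foxa2 peak with GW3965 lay on 4 of the 15 regions and one with T09 on 2 of the 15. No WT LXR list had a peak on any of them.

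**Figure D2:**
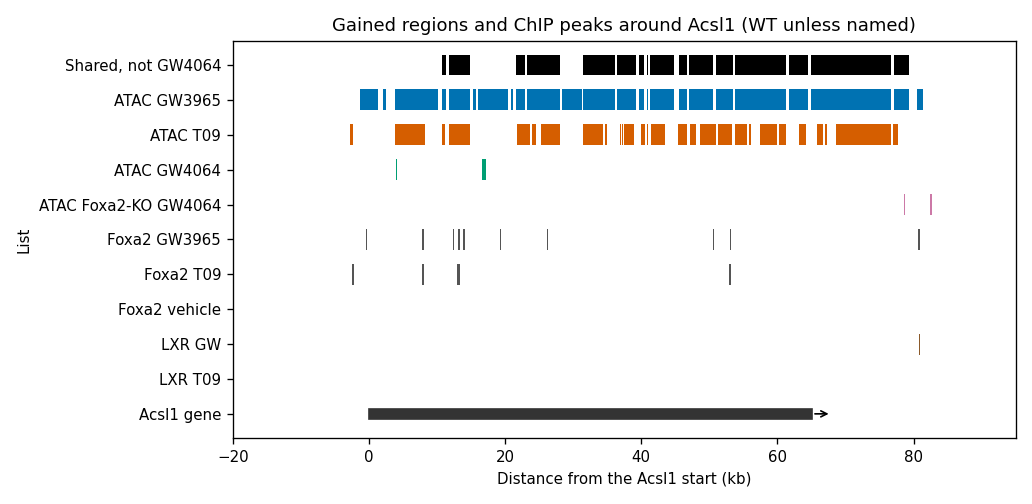
Regions and peaks of each list around Acsl1, in kb from the gene's start, with the gene as a dark bar and an arrow in its direction. Shared LXR-agonist regions run from 10.7 kb after the start to 79.4 kb, beyond the end of the 65-kb gene. The GW4064 list has 2 regions in the window, and the Foxa2 list of the vehicle of the LXR-agonist experiment has none. The Foxa2 lists of the GW4064 experiment are not drawn. In or near the gene they hold 3 peaks with GW4064 and 1 with its vehicle.

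Cyp2c70 (chr19:40153361-40187286) had 9 shared LXR-agonist regions over 73.2% of its body. There the fold was the higher with T09, at a median of 4.02 (1.76 to 5.24), against a median of 1.57 with GW3965 (1.26 to 2.16), and the ranges overlapped. The region over its start, which holds the window printed above, had a fold of 1.3 with GW3965 and 1.76 with T09 and a Foxa2 peak in each of the 5 Foxa2 lists. Slc27a2 (chr2:126553024-126588243), a very-long-chain acyl-CoA synthetase, had 9 regions over 69.4%, with median folds of 1.5 for GW3965 and 1.32 for T09. Ces3b (chr8:105083733-105093929), a carboxylesterase, had 4 over 63.9%, with median folds of 2.29 for GW3965 and 2.96 for T09. GW4064 regions covered 0.442% of Cyp2c70, 0% of Slc27a2 and 3.58% of Ces3b. Since the rule keeps GW4064 regions off the shared LXR-agonist regions, a gene that these mostly cover has little GW4064 coverage by selection.

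Among the 10 regions best placed in both lists, 5 lay in Ttc39c, which encodes a protein with tetratricopeptide repeats. That gene held 18 regions over 49.2% of its body, and 23 regions that also reached Cabyr and Osbpl1a (an oxysterol-binding protein homologue) formed a run of 106 kb, 79.4% of it inside them. A run joins regions at most 5 kb apart, a limit chosen after seeing the data. Of 2061 runs, 1906 were single regions and 17 held 5 or more, with 141 regions among them (5.94%). The Acsl1 run held 14 regions over 57.7 kb (86.7% inside) and the Slc27a2 run, which reached Hdc, 11 over 37 kb (84.3% inside). The Cyp2c70 run held 6 over 15.2 kb (89.6% inside). A run in Upp2 held 17 over 30.1 kb, with 22.7% inside.

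Dpyd, Upp2 and Kynu, long genes chosen after their values were seen, held many narrow regions. Dpyd, the first enzyme of pyrimidine breakdown, held 24 over 1.18% of its 871 kb, with median folds of 2.48 for GW3965 and 2.44 for T09. Upp2, a uridine phosphorylase, held 18 over 3.37%, with medians of 2.54 for GW3965 and 2.05 for T09. Many of the Upp2 regions lay in the same T09 region, chr2:58774570-58797877, so its fold of 2.05 recurs in the T09 median. Kynu (kynureninase), of tryptophan breakdown, held 9, with medians of 2.07 for GW3965 and 1.89 for T09. Hacl1, a lyase of peroxisomal alpha-oxidation, held 9 regions with a median fold of 1.62 for GW3965 and 2.92 for T09. Lpin2, a phosphatidate phosphatase, also held 9, with 1.83 for GW3965 and 1.63 for T09. Several of the Lpin2 regions, like several in Slc27a2, also shared a T09 region.

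**Figure D3:**
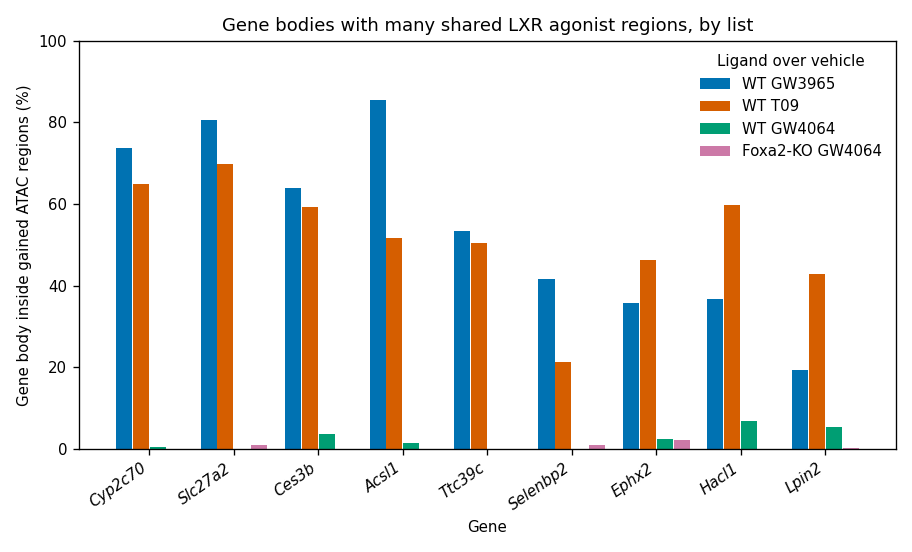
Share of the gene body, in percent, that gained ATAC regions covered, 1 bar per list (ligand over vehicle), for 9 genes with many shared LXR-agonist regions, chosen after their values were seen. The GW3965 and T09 bars are the tallest pair for each of the 9 genes, and the bars for GW4064 in WT reach at most 6.92%, at Hacl1; the selection of the regions favours both.

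A few of the widest regions took in whole small genes at low fold. Apoa1 and Apoc3 (an inhibitor of lipoprotein lipase) lay wholly in 1 region of 13587 bp at chr9:46222531-46236117, with a fold of 1.12 with GW3965 and 1.04 with T09. Dbp, a clock output factor, lay in one of 13691 bp, with a fold of 1.16 with GW3965 and 1.35 with T09, together with much of Sphk2 (sphingosine kinase 2). Serpina3k, a plasma protease inhibitor, lay in one of 10955 bp, with 1.14 with GW3965 and 1.28 with T09. The widest, 19132 bp at Aldh1l1 and Slc41a3, had folds of 1.09 with GW3965 and 1.1 with T09. At Scp2, sterol carrier protein 2, a region of 9381 bp was entry 58689 with GW3965 (fold 1.07) and overlapped entry 36 with T09 (fold 1.75). These wide regions are the ones with the most bases in common and among those with the lowest folds.

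Shared LXR-agonist regions were found near 1709 of 21887 protein-coding genes (7.81%), with a reach of 10 kb on either side of the gene. These genes are long, with a median of 34.7 kb against 17.2 kb for all genes, and the shares by list are not adjusted for gene length. Among LXR targets and sterol handling genes, 13 of 38 had one (34.2%, median length 22 kb). Pltp, the phospholipid transfer protein, had 1 over 9.79% of its body. Lpcat3, which puts polyunsaturated chains into phospholipids, had 2 (4.61%), and Mlxipl, which encodes ChREBP, had 4 (3.77%). Elovl6, a fatty acid elongase, had 5 (1.79%). The acetyl-CoA carboxylase genes Acaca and Acacb had 3 and 1, and the sterol exporter Abcg1 and Tmem135 had 1 each. No gene of this list had 25% of its body inside shared LXR-agonist regions. Srebf1 and Abcg8 had one within 10 kb and none in the body.

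Fatty acid and triglyceride genes had one at 11 of 31 (35.5%), led by Acsl1, Lpin2 (5.74%) and Fads1 (4.27%), a fatty acid desaturase. Bile acid genes had one at 11 of 28 (39.3%), led by Slc27a2, Slc27a5 (13.4%), which joins bile acids to CoA, and Acox2 (8.19%), a peroxisomal oxidase of bile acid precursors. Cyp7b1, the oxysterol 7-alpha-hydroxylase, held 7, with median folds of 1.69 for GW3965 and 2.91 for T09. Growth factor and insulin signalling genes had one at 11 of 26 (42.3%), with a median length of 57.6 kb, the longest of the lists. They were led by Igfals (69.4%), Pik3r1 (8.36%), the regulatory subunit of PI3-kinase, and Fgfr3 (8.14%). The factors Foxo3 and Foxo1 held 6 and 2.

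Clock genes had one at 6 of 20 (30%), among them Dbp (100%) and Per2 (2.16%). Hepatocyte identity genes had one at 7 of 31 (22.6%), led by Apoa1, Apoc3 and Serpina1c (5.01%). Of the 7, Apoa1, Apoc3 and Apoa4 were all counted through 1 region, of 13587 bp. Transcription factors and receptors had one at 9 of 41 (22%), among them Ppara (6.24%) and Onecut1 (4.36%). Genes of gluconeogenesis and amino acid breakdown had one at 6 of 30 (20%), among them Fah (30.2%), the last enzyme of tyrosine breakdown, and Cps1 (4.6%), the first enzyme of the urea cycle. Shares nearer to the 7.81% of all genes were found for acute phase genes, 4 of 25 (16%), with the cytokine receptors Lifr (8.8%), Il6st (3.48%) and Il6ra (2.99%), and for fatty acid oxidation genes, 5 of 34 (14.7%), with Ppara, Ehhadh (4.64%) and Acot12 (2.22%). The xenobiotic list had 4 of 36 (11.1%), with Cyp2c70, Sult2a8 (5.66%) and Por (2.54%).

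Markers of other liver cells had few such regions, in lists too short to be set apart from the 7.81% of all genes. Kupffer cell markers had one at 0 of 12, stellate cell markers at 0 of 12, cholangiocyte markers at 0 of 10 and sinusoidal endothelial markers at 1 of 12 (Stab1). Regions of the whole GW3965 list lay at 5 of 12, 9 of 12, 6 of 10 and 11 of 12 of these, and at 61.1% of all genes. In whole liver, a change in the number of cells of a type and a change in accessibility per cell cannot be told apart.

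**Figure D4:**
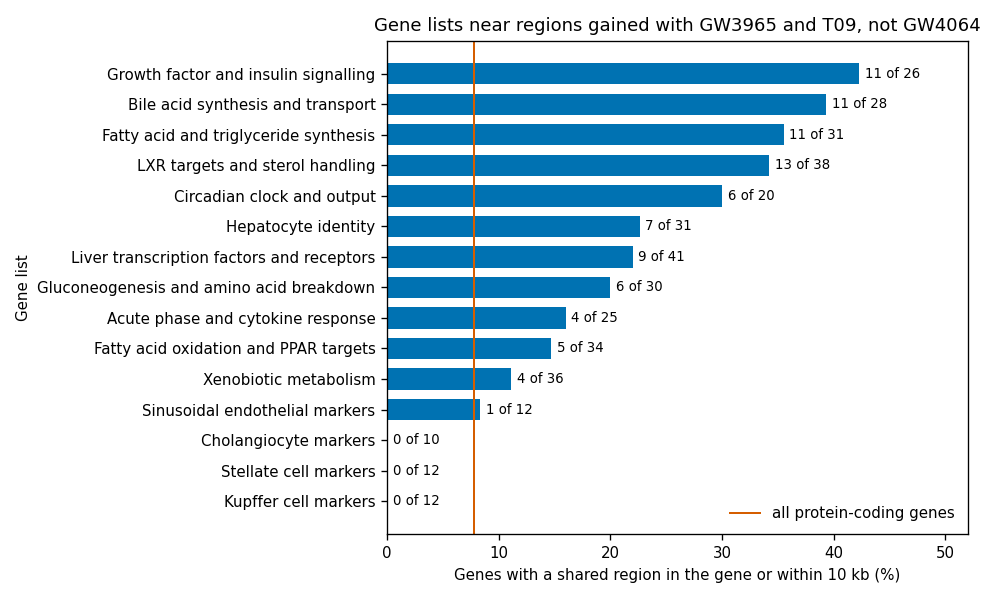
Percent of the genes of each list with a shared LXR-agonist region in the gene or within 10 kb, with the counts beside the bars and a line at 7.81%, the share of all protein-coding genes. The lists of metabolism and signalling reach 42.3% and those of non-hepatocyte markers, with 10 or 12 genes each, stay at or below 8.33%; gene length differs between lists.

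Foxa2 binding was the most frequent ChIP signal on these regions, though above 250 bp its share was below that of regions of like width gained with GW3965 alone. A Foxa2 peak of WT liver with GW3965 lay on 335 of the 2374 (14.1%, 95% exact binomial interval 12.7 to 15.6), against 7.68% of all GW3965 regions. The regions with such a peak had a median width of 1091 bp and those without one 359 bp. Set by width, the shares on shared LXR-agonist regions and on regions gained with GW3965 alone were 1.44% and 0.404% up to 250 bp, 7.16% and 9.18% above 250 and up to 500 bp, 18.8% and 31.3% up to 1000 bp, and 35.9% and 49.9% above that. Per 100 kb of covered sequence there were 20.2 peaks in shared LXR-agonist regions and 27.5 in those gained with GW3965 alone. Over the bases that shared LXR-agonist regions had in common with T09 regions, the density was 25.9. Up to 250 bp the shared LXR-agonist regions held a Foxa2 peak more often than regions gained with GW3965 alone, with counting intervals that did not overlap. Above 500 bp the shared LXR-agonist regions held one less often, again with intervals that did not overlap. Lower shares were not particular to them: from 501 to 1000 bp and above 1000 bp, the regions gained with all 3 ligands had 12.6% and 28.1%, and those gained with GW3965 and GW4064 had 24.9% and 42.8%.

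With T09 the Foxa2 peaks lay on 210 (8.85%, interval 7.73 to 10.1), against 5.68% of all GW3965 regions. Their density was 12.3 per 100 kb, against 19.9 in regions gained with GW3965 alone. Over the bases in common with T09 regions it was 15.8. The Foxa2 list with GW4064 touched 169 (7.12%, against 4.64% of all GW3965 regions), that of the vehicle of the LXR-agonist experiment 54 (2.27%, against 1.84%) and that of the vehicle of the GW4064 experiment 66 (2.78%, against 2.1%). Peaks with both LXR agonists were present on 180 regions, with GW3965 and not T09 on 155, and with T09 and not GW3965 on 30. Of the 365 regions with a Foxa2 peak with either LXR agonist, 311 had none with vehicle, whose list holds 4348 peaks, against 21245 with GW3965 and 25318 with T09. A Foxa2 peak was found in all 5 lists at 43 regions (1.81%) and in none of them at 1986 (83.7%). Combinations of Foxa2 lists were counted for the shared LXR-agonist regions alone, so no share over all GW3965 regions stands beside them.

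**Figure D5:**
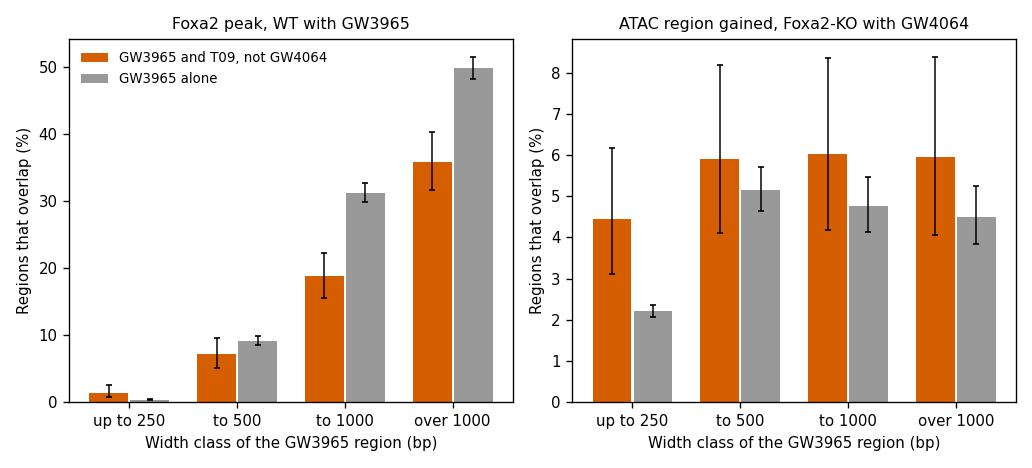
Percent of regions that overlap a Foxa2 peak of WT liver with GW3965 (left) or a region gained in Foxa2-KO liver with GW4064 (right), by width of the region in bp, for shared LXR-agonist regions and for regions gained with GW3965 alone. Error bars are 95% exact binomial intervals, which cover counting error only. In the left plot the shared LXR-agonist regions are the higher of the pair up to 250 bp and the lower above 500 bp. In the right plot the intervals overlap in every class but the narrowest.

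LXR peaks were rare on shared LXR-agonist regions. With GW they lay on 30 (1.26%, interval 0.854 to 1.8), against 0.516% of all GW3965 regions. With T09 they lay on 16 (0.674%, against 0.263%), and with vehicle on 13 (0.548%, against 0.177%). The share with GW was 1.52% in the regions gained with all 3 ligands and 1.78% in those gained with GW3965 and GW4064. Set by width, the shares with GW on shared LXR-agonist regions and on regions gained with GW3965 alone were 0.393% and 0.134% up to 250 bp, 0.894% and 0.529% above 250 and up to 500 bp, 1.09% and 1.08% up to 1000 bp, and 3.17% and 2.75% above that. These shares rest on 3, 5, 6 and 16 shared LXR-agonist regions. With vehicle the shares above 1000 bp were 1.98% (10 regions) and 1.05%. The density with GW was 1.73 per 100 kb, against 1.58 in regions gained with GW3965 alone. At least 1 WT LXR list touched 51 regions, GW and T09 together touched 3, and all 3 lists touched 2. In Foxa2-KO liver, LXR peaks lay on 14 regions with GW (0.59%, against 0.29% of all GW3965 regions), on 4 with T09 (0.168%, against 0.134%) and on 1 with vehicle (0.0421%, against 0.0191%). LXR peaks of both genotypes were found on 5 regions. Combinations of LXR lists, too, were counted for the shared LXR-agonist regions alone. LXR peaks are narrow in these lists, with a median of 39 bp with GW, and the lists differ in length, so an absent entry does not show absent binding.

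A Foxa2 peak and an LXR peak with the same agonist both touched 9 of the shared LXR-agonist regions. The 2 peaks need not overlap each other, and the share over all GW3965 regions was not computed. Among them were regions in Lrig1, Chmp7, Iah1, Macrod1 and Hpn, near Mup-ps16 and Zfp933, and 35493 bp from Wdr5. None of these genes is in the LXR target list. The Mup-ps16 region also had FXR and PPAR peaks, and the Zfp933 region also had PPAR peaks. The Lrig1 region (chr6:94669151-94670422) had a fold of 1.49 with each agonist. The region at Hpn, which encodes the hepatocyte surface protease hepsin, had an LXR peak in all 3 WT lists and a fold of 1.08 with both agonists.

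FXR and PPAR peaks were fewer still. An FXR peak in any of its 4 lists lay on 18 regions (0.758%, against 0.786% of all GW3965 regions), 15 of them in WT with GW4064 (0.632%, against 0.614%). A PPAR peak in any of its 8 lists lay on 10 (0.421%, against 0.251%), with a highest single count of 5, in Foxa2-KO with GW4064 (0.211%, against 0.0732%). No peak of any of the 23 ChIP lists lay on 1923 of the shared LXR-agonist regions (81%), against 90% of the other GW3965 regions. Places listed for all 4 antibodies numbered 102, and 1 of the 2374 regions lay on such a place.

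In Foxa2-KO liver, the regions gained with GW4064 overlapped 130 of the shared LXR-agonist regions (5.48%, interval 4.6 to 6.47), against 3.26% of all GW3965 regions. The share was 7.59% in the regions gained with all 3 ligands and 7.98% in those gained with GW3965 and GW4064. By width the shares on these and on regions gained with GW3965 alone were 4.46% and 2.21% up to 250 bp, 5.9% and 5.16% above 250 and up to 500 bp, 6.02% and 4.77% up to 1000 bp, and 5.95% and 4.5% above. Per 100 kb the density was 7.13, against 10.6 in regions gained with GW3965 alone. Over the bases in common with T09 regions it was 8.64. By its rule, none of the 130 was gained with GW4064 in WT liver. Of the 49 genes with at least 25% of the body inside shared LXR-agonist regions, 39 had 0% inside Foxa2-KO GW4064 regions, Acsl1, Ttc39c, Ces3b and Hacl1 among them, and 7 had up to 10%. The other 3 had more: Gnb2 (96.5%), a G protein beta subunit, Rnf223 (39.3%) and Rnpepl1 (16.8%). The share of all protein-coding genes with 0% was not counted, so these counts do not set the 49 genes apart. Accessibility of these regions in Foxa2-KO liver with the LXR agonists was not analysed here.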

How the data were processed

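ATAC-seq and ChIP-seq libraries of mouse liver were used as 27 region lists. The submitters' processing notes name BWA, STAR, RSEM and edgeR, with no versions, and the build mm10. Regions were called by PeakSeq, ligand against vehicle for ATAC and antibody against input for ChIP, per the labels. Fold (an enrichment ratio), q-value and −log10 of p are as the authors deposited them, the last was not used, and the largest q was 0.05 in the GW3965 and T09 ATAC lists. Positions are given 1-based.

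The regions and gene lists were chosen with earlier results of these data known. Overlap needs at least 1 base. Intervals are exact (Clopper-Pearson, scipy 1.17.1, python 3.11.15), and they cover counting error only, since neighbouring regions are not independent. The overlap step was tested on simulated data. Genes are the 21887 protein-coding genes of RefSeq's mm10 table, which lacks exons. Named were the 10 regions best placed in both lists, the 10 with most common bases, up to 3 genes a list (10 for LXR) by percent of the body covered, regions with Foxa2 and LXR peaks of the same agonist, and 3 just inside and outside the rule; other genes were chosen after their values were seen. Of the listed symbols, Bmal1, G6pc1 and Tf were counted under older names. A few genes and regions, some of which the rule names, are not reported here, so the genes named and plotted are not complete lists. RNA-seq was not analysed here.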

Additional observations from a re-analysis of the deposited data

How the results depend on the processing

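No paired analysis was possible because the lists hold no value per sample, and for the same reason no replicate could be left out. The number of regions stayed within 1.5 times of 2374 with at least 100 bases of overlap (1716), 50% of the shorter region (2113), no GW4064 region within 1 kb (2102), counting in the T09 list (2364) and, chosen after seeing the data, counting regions less than 5 kb apart once (2061). It fell to 368 at q of at most 0.01 and 113 at 0.001 in both lists, and to 313 with the first 10000 entries of each, where fewer regions enter. Foxa2 shares moved from 14.1% (GW3965) and 8.85% (T09) to 2.27% with the vehicle list and, split by width after seeing the data, to 3.86% and 1.89% up to 500 bp and 27% and 17.6% above. Requiring 50 bases, the common bases or no shared place left them inside their intervals. The LXR share of 1.26% with GW became 0.548% with the vehicle list, and the Foxa2-KO GW4064 share of 5.48% became 4.47% with 100 bases and 1.22% at q of at most 0.01; the cause was not tested. Genes in reach, 1709 within 10 kb, numbered 1091 by gene body, 3415 within 50 kb and 49 by 25% coverage. At 25% coverage the count was 0 for LXR targets, fatty acid oxidation, transcription factors, acute phase and endothelial markers, 1 for fatty acid synthesis, bile acid, gluconeogenesis, clock, xenobiotic and growth factor genes and 2 for identity genes. By gene body it was 3 for fatty acid oxidation (also within 5 kb), 3 for identity genes, 5 for transcription factors and 0 for endothelial markers (also within 5 kb). Within 50 kb it was 11 for identity genes, 12 for xenobiotic genes and 1 for Kupffer, stellate and cholangiocyte markers.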

Other observations

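The lists of the 2 agonists differed in how much of a gene their regions covered at several genes near shared LXR-agonist regions. These genes were chosen here after their values were seen. T09 regions covered more at Ass1 (98.8% of the body, against 0% for GW3965), the urea cycle enzyme argininosuccinate synthase, at Onecut1 (74.2%, against 4.36%), a liver transcription factor, at Pnpla2 (74.4%, against 0%), the main triglyceride lipase, at Aass (60.3%, against 4.75%), the first enzyme of lysine breakdown, and at Hgd (72.1%, against 19.1%), an enzyme of tyrosine breakdown. GW3965 regions covered more at Agpat2 (66.5% of the body, against 0% for T09), an acyltransferase of triglyceride synthesis, at Acox2 (61.2%, against 4.96%), at Rbp4 (73.5%, against 0%), the retinol carrier of plasma, and at Ehhadh (38.4%, against 6.46%), a peroxisomal oxidation enzyme. Apoa4 lay 67.6% in T09 regions and 100% in Foxa2-KO GW4064 regions, and 0% in GW3965 regions. A share of 0% means that no region was listed there, which does not show absent opening. With 1 list per comparison these differences were not tested.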
